A study of Mus musculus with 4 samples.

Results

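The 10 genes described here encode the machinery that sets whether a cell leaves the G1 phase: the INK4 inhibitors Cdkn2a, Cdkn2b, Cdkn2c and Cdkn2d, the Cip/Kip inhibitor Cdkn1b, the D cyclins Ccnd1, Ccnd2 and Ccnd3, and their kinases Cdk4 and Cdk6. They were taken as the gene rows that carry these symbols, and 10 of 10 had a row among 23358. All 10 were among the 14496 genes tested. RNA was sequenced from 2 clonal mouse lines, each with 2 libraries, that the labels call progenitors of interstitial cells of Cajal (ICC), which pace the contractions of the gut. The line 2xSCS2F10 was derived from the stomach muscle layers of C57BL/6J mice and kept at 37 °C in neural stem cell proliferation medium with 5% chick embryo extract. The line 2xSCS70 was derived from the same tissue of H-2Kb-tsA58 mice, whose transgene drives a temperature-sensitive SV40 large T antigen from the interferon-inducible H-2Kb promoter. It was kept in the same medium, with no extract named, at 39.5 °C and in the absence of interferon gamma. Each line is 1 clone, and line, strain, temperature and medium cannot be told apart in this comparison. Whether the libraries of a line stem from separate cultures is not given in the labels, and the p-values therefore measure spread among these libraries alone, which could be technical. The libraries numbered 2 of both lines were deposited apart from those numbered 1, and whether they were also prepared or sequenced apart is not given in the labels.

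D cyclins accumulate when growth signals arrive, bind CDK4 or CDK6, and the active kinases phosphorylate the retinoblastoma protein so that E2F factors can switch on genes of DNA replication. INK4 proteins bind the kinases and keep the cyclins off, whereas p27, the product of Cdkn1b, inhibits later cyclin-dependent kinases and is itself bound by cyclin D complexes. Cdkn2a encodes a pair of unrelated proteins from alternative first exons: p16Ink4a, an INK4 inhibitor, and p19Arf, which stabilises p53 by binding Mdm2. The gene is a known barrier to the continuous growth of mouse cells in culture. Large T antigen binds the retinoblastoma proteins and p53, and its transcript was not analysed here.

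The row of Cdkn2a cannot separate its products. It spanned chromosome 4 from 89274473 to 89294619 (mm10) with a deposited length of 1136 bases. The union of the exons of 2 annotated transcripts within these bounds, on the minus strand of GRCm38, was also 1136 bases. The transcript of p16Ink4a begins with an exon of 207 bases (89281986 to 89282192) and that of p19Arf with one farther upstream, of which 286 bases lay within the row. Exons of both transcripts covered 575 of the 1136 bases (50.6%), among them the whole of exon 2 (89276645 to 89276985, 341 bases). A count in this row is therefore a sum over p16Ink4a and p19Arf.

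Cdkn2a has 1 promoter for each product, and Cdkn2b has its own just upstream. Their sequences do not tell how the counts of the Cdkn2a row divide between its products. Promoter windows were taken from the RefSeq promoter table (GRCm38.p6) as the 216 bases from 250 to 35 bases before each annotated start. Of the 10 genes, 8 matched with 11 windows. Of these windows, 4 overlap exons of other annotated transcripts (both of Cdkn2c and those of Cdkn2d and Cdk6), and none of these is shown. The windows of both Cdkn2a starts, of Cdkn2b and of Cdk4 are shown, the first 3 as neighbours at 1 locus and the last as the kinase with the highest level. Capitals mark the letters of any motif searched.
Cdkn2a, p19Arf start: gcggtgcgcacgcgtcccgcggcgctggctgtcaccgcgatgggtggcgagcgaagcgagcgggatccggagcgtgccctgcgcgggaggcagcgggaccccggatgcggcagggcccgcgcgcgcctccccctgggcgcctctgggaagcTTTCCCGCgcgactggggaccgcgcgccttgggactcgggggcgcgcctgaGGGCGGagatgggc
Cdkn2a, p16Ink4a start: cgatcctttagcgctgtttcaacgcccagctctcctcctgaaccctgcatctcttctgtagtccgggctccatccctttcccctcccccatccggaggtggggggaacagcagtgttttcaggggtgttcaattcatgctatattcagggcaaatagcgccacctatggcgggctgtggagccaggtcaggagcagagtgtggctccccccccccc
Cdkn2b: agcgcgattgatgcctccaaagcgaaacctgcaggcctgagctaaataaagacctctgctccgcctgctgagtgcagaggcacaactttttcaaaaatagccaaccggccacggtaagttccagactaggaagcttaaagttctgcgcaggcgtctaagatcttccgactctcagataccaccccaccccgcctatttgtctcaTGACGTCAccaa
Cdk4: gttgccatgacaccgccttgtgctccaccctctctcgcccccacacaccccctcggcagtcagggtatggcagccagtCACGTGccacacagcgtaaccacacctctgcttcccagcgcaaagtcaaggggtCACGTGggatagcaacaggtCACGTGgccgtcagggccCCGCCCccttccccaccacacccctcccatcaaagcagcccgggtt
These lie at chr4:89294654-89294869, chr4:89282227-89282442 and chr4:89311067-89311282 on the minus strand and at chr10:127063285-127063500 on the plus strand. The p16Ink4a window falls in the intron of the p19Arf transcript. The windows of the 2 Cdkn2a starts differed in composition: that of p19Arf held 78.7% G and C and 35 CpG dinucleotides, and that of p16Ink4a 59.7% and 7. Over all 32851 windows of the table the medians were 51.9% and 5 CpG. The motifs were searched on both strands: the GC box GGGCGG, the TATA box TATAAA, the E box CACGTG, the AP-1 site TGACTCA, the cyclic AMP element TGACGTCA, and an E2F site spelled TTTCCCGC, TTTCGCGC, TTTGCCGC or TTTGGCGC. The p19Arf window held 1 E2F spelling, TTTCCCGC, starting 99 bases before the start, and 1 GC box. The p16Ink4a window held none of the motifs. The Cdkn2b window held 1 cyclic AMP element 46 bases before its start, and the Cdk4 window 3 E boxes, at 172, 118 and 98 bases, and 1 GC box on the other strand. Of all windows, 1.55% held an E2F spelling, 27.9% a GC box, 4.89% an E box, 1.11% a cyclic AMP element, 9.80% a TATA box and 3.93% an AP-1 site. A match of letters is a description and not a binding site.

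The libraries held 40319972, 45098902, 48971264 and 44737008 counts in genes. Every count was even, and 1 fragment was therefore taken as 2 counts. Values are given in the order 2xSCS2F10 replicates 1 and 2, then 2xSCS70 replicates 1 and 2, and means ± SD are over n = 2 libraries. CPM are counts relative to library size after TMM scaling, and RPKM, the authors' own values, relate counts to gene length and to the reads of a library without TMM factors. Comparisons between lines were read from edgeR's quasi-likelihood test across all tested genes with Benjamini-Hochberg adjustment and a threshold of 0.05. This called 40.6% of tested genes, 18.8% higher and 21.8% lower in 2xSCS70. Of the calls 46.3% were higher, against 63.8% on log2(RPKM + 1) values, and the median log2 change of all tested genes was 0.02 and 0.15 on these scales. More than 2-fold between replicates separated 12.4% of tested genes in 2xSCS2F10 and 2.72% in 2xSCS70. Of 5 markers of ICC 4 were tested, 0 higher and 2 lower in 2xSCS70 (Ano1 and Gja1), and their summed level was 269, 212, 162 and 184 CPM. The remaining marker, the receptor gene Kit, had 0 counts in 2xSCS2F10 and 1 fragment in 2xSCS70. Of 5 progenitor markers, all tested, 2 were higher (Cd34 and Cd44) and 1 was lower (Igf1r), with a median log2 change of -0.05 and a summed level of 461, 443, 747 and 712 CPM. Of 9 smooth muscle markers 8 were lower in 2xSCS70 (summed level 5284, 9368, 842 and 779 CPM), and of 7 mesothelial markers all 7 were (3651, 4088, 107 and 95.6 CPM). Macrophage markers summed to 3.90 to 7.60 CPM over the 4 libraries, endothelial markers to 4.11 to 9.39 CPM and glial markers to 0.997 to 1.81 CPM. Among these, Itgam, Cdh5 and Foxd3 were at 0 in 2xSCS2F10 and Ptprc and Emcn at 0 in 2xSCS70. Of 5 enteric neuron markers 2 were tested, 1 higher and 1 lower in 2xSCS70, and they summed to 278, 255, 43.6 and 44.0 CPM. Elavl4 was at 0 in all libraries and Ret was at 0 in 2xSCS70. The part of these markers in the results below was not tested.

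Across the pathway, 2xSCS70 had more Cdkn2a and less of all 3 D cyclins, Cdkn1b and Cdk6 than 2xSCS2F10. Of the 10 genes 6 were called (40.6% of all tested genes were), 1 higher and 5 lower, against 18.8% and 21.8% of tested genes. In CPM, both libraries of one line stood apart from both of the other for 7 of 10 genes, which held for 77.4% of tested genes. The median log2 change of the 10 genes was -0.36, beside 0.02 for all tested genes. In RNA from whole cultures, fewer cells of a type and less RNA per cell cannot be told apart. Without 2xSCS70 replicate 1, and equally without its replicate 2, the calls of Ccnd2 and Ccnd3 remained and the other 4 ended. The number of genes called over the whole table fell to 850 and 889 in those tests.

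**Figure D1:**
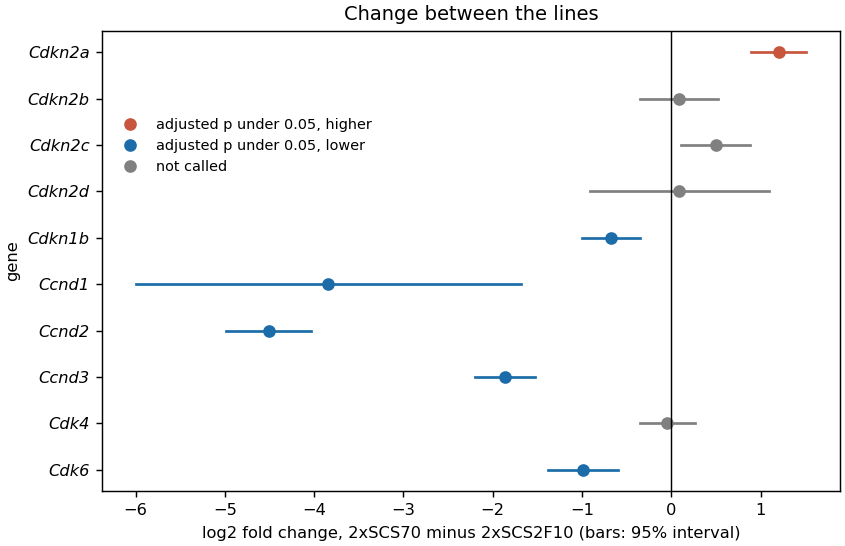
Log2 fold change of each gene, 2xSCS70 minus 2xSCS2F10 (horizontal axis), from edgeR's quasi-likelihood test on 2 libraries per line; bars are 95% intervals and colours give the call at an adjusted p of 0.05. The intervals of Cdkn2b, Cdkn2d and Cdk4 include 0, and that of Ccnd1 is the widest of the 10, from -6.00 to -1.68.

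The INK4 gene that changed was Cdkn2a. Its level was 101, 101, 244 and 219 CPM, or 68.4, 57.1, 188 and 152 RPKM. Both 2xSCS70 libraries lay above both 2xSCS2F10 libraries on either scale. The gene was 2.30-fold higher in 2xSCS70 (232 ± 17.9 against 101 ± 0.0880 CPM, log2 1.20, SE 0.12, adjusted p = 0.00275). By RPKM it stood above 94.7% and 94.5% of tested genes in 2xSCS2F10 and above 98.6% and 98.5% in 2xSCS70. The call ended without 2xSCS70 replicate 1 (adjusted p = 0.0617) or its replicate 2 (0.0503), with a log2 change of 1.12 and 1.28.

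Cdkn2b, which encodes p15Ink4b and lies upstream of Cdkn2a on the same strand (chromosome 4, 89306289 to 89311032), did not pass the test. Its level was 48.3, 62.2, 61.8 and 55.4 CPM, or 26.8, 28.8, 38.9 and 31.5 RPKM. In CPM the 2xSCS70 libraries lay within the range of the 2xSCS2F10 libraries. In RPKM both lay above both, with a change of 0.32 on log2(RPKM + 1) values that did not pass (adjusted p = 0.208). In the main test the log2 change was 0.08 (SE 0.17, 95% interval -0.35 to 0.52, adjusted p = 0.707). Within 1 library the ratio of Cdkn2a to Cdkn2b RPKM was 2.55, 1.98, 4.85 and 4.84, which is 2.15-fold between the lines. With 2 against 2 libraries the exact two-sided permutation p of such a ratio cannot go below 0.333, which was its value here. Without 2xSCS2F10 replicate 1 the log2 change of Cdkn2b was -0.10 (adjusted p = 0.47), and without replicate 2 it was 0.28 and passed (0.0431).

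Cdkn2c, the gene of p18Ink4c (chromosome 4, 109660876 to 109665372), was close to the threshold. Its level was 28.2, 23.9, 34.6 and 38.8 CPM. Both 2xSCS70 libraries lay above both 2xSCS2F10 libraries, and the log2 change was 0.50 (SE 0.15, 95% interval 0.11 to 0.88, adjusted p = 0.0522). The call depended on the settings: it was gained under upper quartile scaling (0.58, adjusted p = 0.0392) and with DESeq2 (0.48, 0.0439) but not with the replicate number as a block (0.0861). With 1 library left out, the log2 change was 0.61 and 0.38 without 2xSCS2F10 replicates 1 and 2. It was 0.57 and 0.41 without 2xSCS70 replicates 1 and 2. Among these tests the call was gained only where a 2xSCS2F10 library was left out.

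Cdkn2d, the gene of p19Ink4d (chromosome 9, 21288464 to 21291209), was not called, and the 2xSCS2F10 replicates pulled its change in opposite directions. Its level was 32.2, 14.4, 26.8 and 22.7 CPM. The 2xSCS2F10 replicates lay on either side of both 2xSCS70 libraries and differed 2.23-fold from each other. The log2 change was 0.09 (SE 0.39, 95% interval -0.91 to 1.09, adjusted p = 0.864). It became 0.77 (adjusted p = 1.21e-05) without 2xSCS2F10 replicate 1 and -0.38 (0.0112) without its replicate 2, so that a call in either direction could be had from 1 library of that line.

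**Figure D2:**
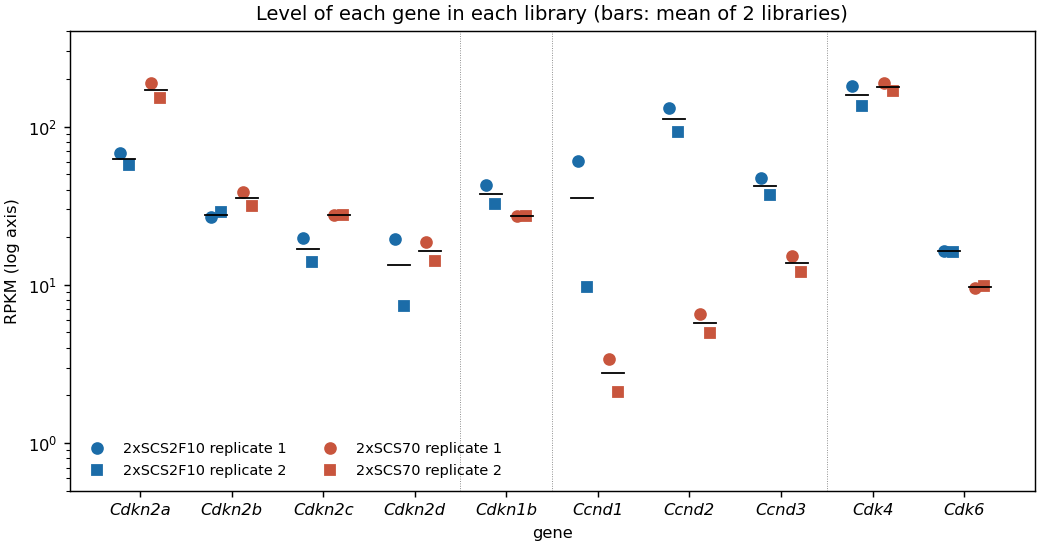
RPKM of each gene in each library on a log axis, with circles for replicate 1, squares for replicate 2 and black bars for the mean of 2 libraries. Ccnd2 stands at 131 and 92.0 RPKM in 2xSCS2F10 and at 6.52 and 4.93 RPKM in 2xSCS70, while Cdk4 stays between 135 and 189 RPKM in all 4.

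Cdkn1b, the gene of p27Kip1 (chromosome 6, 134920401 to 134925525), was lower in 2xSCS70. Its level was 133, 120, 75.2 and 83.3 CPM, with both 2xSCS70 libraries below both of 2xSCS2F10. The fall was 1.60-fold (79.2 ± 5.75 against 126 ± 9.35 CPM, log2 -0.67, SE 0.13, adjusted p = 0.0143). The call ended on log2(RPKM + 1) values (-0.42, adjusted p = 0.139) and against a 1.5-fold change (0.279). It also ended without 2xSCS70 replicate 1 (0.173) or replicate 2 (0.125).

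The other inhibitors were measured beside it. Cdkn1a encodes p21Cip1, a target of p53 that inhibits cyclin-dependent kinases, and its level was 188, 207, 60.9 and 55.6 CPM. Both 2xSCS70 libraries lay far below, and the gene was 3.39-fold lower, at 58.2 ± 3.78 in 2xSCS70 against 197 ± 13.1 CPM (SE 0.13, adjusted p = 0.00121). This call remained without either 2xSCS70 library. Cdkn1c, the gene of p57Kip2, had 0 counts in 2xSCS2F10 and 2 fragments in 2xSCS70, under the floor of 3 fragments per library (0.109 to 0.157 CPM), and was not tested. Of these inhibitors and Cdkn3, 2 genes were tested, 0 rose and 1 fell, against 18.8% and 21.8% of all tested genes. Cdkn3, the other tested gene, passed as higher without 2xSCS2F10 replicate 1, when 1 gene of the list rose.

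All 3 D cyclins were lower in 2xSCS70, and Ccnd2 changed most of the 10 genes. Ccnd2 (chromosome 6, 127125709 to 127151048) was measured at 977, 822, 42.9 and 36.0 CPM. Every 2xSCS2F10 library held many times the level of every 2xSCS70 library. The gene was 22.8-fold lower, at 39.5 ± 4.89 in 2xSCS70 against 900 ± 109 CPM (log2 change -4.51, SE 0.19, adjusted p = 0.000456), and 3.19% of tested genes had a log2 change as low. By RPKM it stood above 97.8% and 97.0% of tested genes in 2xSCS2F10 and above 49.9% and 46.2% in 2xSCS70. The call remained in every alternative run, with a log2 change between -4.64 and -4.05.

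Ccnd3 (chromosome 17, 47505051 to 47599688) was measured at 138, 130, 39.4 and 34.4 CPM. The groups did not overlap, and the gene was 3.64-fold lower in 2xSCS70 (36.9 ± 3.57 against 134 ± 5.64 CPM, log2 -1.86, SE 0.13, adjusted p = 0.00121). This call too remained in every alternative run, with a log2 change from -1.96 to -1.56.

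Ccnd1 (chromosome 7, 144929931 to 144939925), the D cyclin induced by mitogens in many adherent cells, was lower in 2xSCS70 by an amount that depended on the 2xSCS2F10 library. Its level was 299, 57.3, 14.8 and 10.03 CPM, or 60.7, 9.75, 3.42 and 2.09 RPKM. The lines did not overlap, but replicate 1 of 2xSCS2F10 held 5.21 times the level of replicate 2, a difference larger than that of 98.9% of tested genes. In 2xSCS70 the replicates differed 1.47-fold. The fitted fall was 14.3-fold (12.4 ± 3.38 against 178 ± 171 CPM, log2 -3.84, SE 0.84, adjusted p = 0.0216). It was -2.22 on the log2 scale without 2xSCS2F10 replicate 1 and -4.59 without its replicate 2, with -2.80 on log2(RPKM + 1) and -3.14 on log2(RPKM + 0.1) values. The call ended without 2xSCS70 replicate 1 (adjusted p = 0.138) or replicate 2 (0.162).

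The difference of Ccnd1 between the 2xSCS2F10 replicates went with other lists. Of 20 genes of cell proliferation 20 were lower in replicate 2 than in replicate 1 of 2xSCS2F10, with a median difference of -1.80 on the log2 scale, against -0.03 between the 2xSCS70 replicates. Their summed level was 3178, 1385, 4685 and 4613 CPM. The smooth muscle markers went the other way, at 5284 and 9368 CPM in the 2xSCS2F10 libraries. Ccnd1 itself differed by -2.38 and Cdkn2d by -1.16 on this scale, while the remaining 8 genes lay between -0.25 and 0.36. The part of these differences in the change of Ccnd1 between the lines was not tested.

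**Figure D3:**
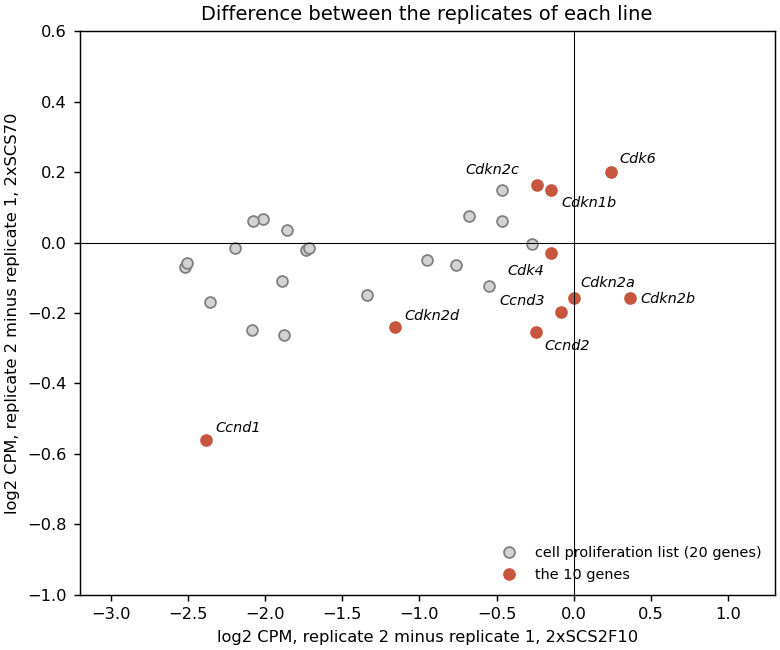
Difference in log2 CPM between replicate 2 and replicate 1 in 2xSCS2F10 (horizontal axis) and in 2xSCS70 (vertical axis), for the 10 genes and for 20 genes of cell proliferation. Ccnd1 (-2.38) and Cdkn2d (-1.16) lie to the left among the proliferation genes, whose median is -1.80, and the other genes lie near 0 on the horizontal axis.

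The kinases parted: Cdk6 was lower in 2xSCS70 and Cdk4 was not called. Cdk4 (chromosome 10, 127063603 to 127067282) was measured at 313, 282, 291 and 285 CPM, and the 2xSCS70 libraries lay within the range of 2xSCS2F10. Its log2 change was -0.05 (SE 0.12, 95% interval -0.36 to 0.26, adjusted p = 0.78), and the sign turned under upper quartile scaling (0.04) and on log2(RPKM + 1) values (0.19). Cdk6 (chromosome 5, 3344312 to 3522225) was measured at 52.7, 62.1, 26.9 and 30.9 CPM, with no overlap. It was 1.99-fold lower in 2xSCS70 (28.9 ± 2.84 against 57.4 ± 6.67 CPM, log2 -0.99, SE 0.15, adjusted p = 0.00864). Its call ended without 2xSCS70 replicate 1 (0.116) or replicate 2 (0.0894).

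Levels of different genes were compared per length, in RPKM. In 2xSCS2F10 the order of the means was Cdk4 (157), Ccnd2 (111), Cdkn2a (62.8), Ccnd3 (42.1), Cdkn1b (37.4), Ccnd1 (35.2), Cdkn2b (27.8), Cdkn2c (16.8), Cdk6 (16.3) and Cdkn2d (13.4). The first 3 did not overlap with their neighbours in this order. From Ccnd3 to Cdkn2b each overlapped with the next, as did the last 3. In 2xSCS70 the order was Cdk4 (178), Cdkn2a (170), Cdkn2b (35.2), Cdkn2c (27.6), Cdkn1b (27.4), Cdkn2d (16.3), Ccnd3 (13.6), Cdk6 (9.71), Ccnd2 (5.72) and Ccnd1 (2.75). There Cdk4 and Cdkn2a overlapped, as did Cdkn2d and Ccnd3, and Cdkn2c and Cdkn1b differed by less than the SD of Cdkn2c (0.204). By these means the D cyclins took 3 of the first 6 places in 2xSCS2F10 and 3 of the last 4 in 2xSCS70. The place of Ccnd1 in 2xSCS2F10 rested on replicate 1, at 60.7 RPKM. In replicate 2 it was at 9.75 RPKM, below Cdkn2b (28.8), Cdk6 (16.2) and Cdkn2c (13.9).

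Shares within a family do not depend on the scaling of a library. Cdkn2a made up 50.9%, 53.3%, 69.0% and 67.5% of the summed RPKM of the 4 INK4 genes, the largest share in each library. Among D cyclins Ccnd2 made up 54.8% and 66.2% in 2xSCS2F10, and Ccnd3 60.6% and 63.1% in 2xSCS70. The leading D cyclin was therefore Ccnd2 in one line and Ccnd3 in the other, with a ratio of Ccnd3 to Ccnd2 of 0.361, 0.404, 2.34 and 2.44. Counted without length, Ccnd2 still led in 2xSCS70, at 44.2% and 44.8% of counts against 40.6% and 42.7% for Ccnd3, so that the change of the leader rests on the lengths of 5771 and 2260 bases in the deposited tables. The share of Ccnd1 was 25.5%, 7.02%, 13.6% and 10.97%, and the 2xSCS70 values lay between those of 2xSCS2F10. Cdk6 made up 8.40%, 10.7%, 4.79% and 5.58% of the kinase sum.

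**Figure D4:**
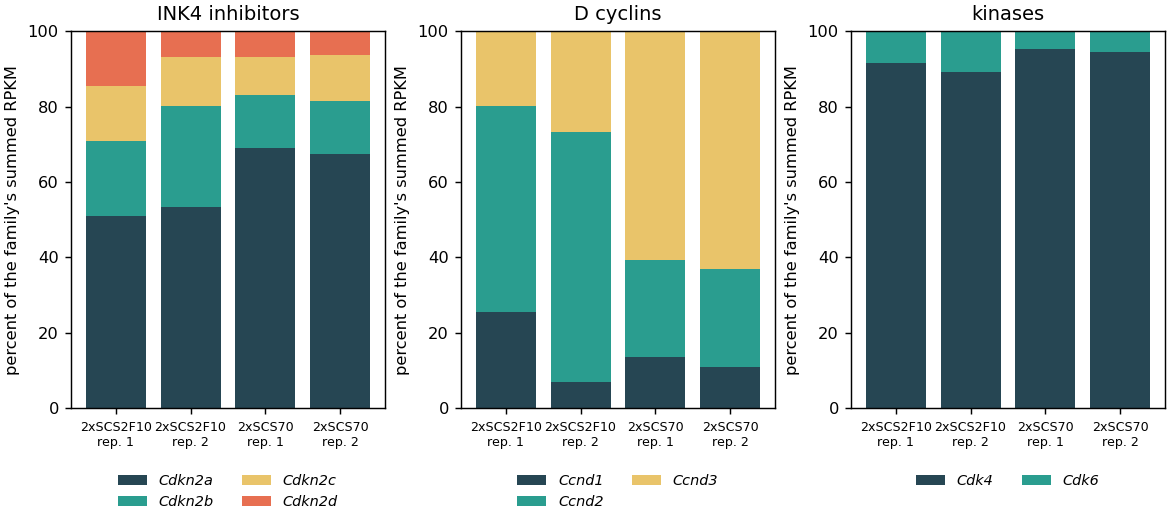
Share of each gene in the summed RPKM of its family (vertical axis, percent) in each library, with 1 panel each for INK4 inhibitors, D cyclins and kinases. Cdkn2a widens from 50.9% and 53.3% to 69.0% and 67.5%, and Ccnd3 replaces Ccnd2 as the largest D cyclin share in both 2xSCS70 libraries.

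The ratio of INK4 to D cyclin transcripts differed between the lines in every library. The 4 INK4 genes summed to 134, 107, 273 and 226 RPKM and the 3 D cyclins to 238, 139, 25.2 and 19.0 RPKM. Their ratio was 0.563 and 0.772 in 2xSCS2F10 and 10.8 and 11.9 in 2xSCS70, 17.2-fold between the lines. D cyclin RPKM exceeded INK4 RPKM in both 2xSCS2F10 libraries, and the reverse held in both of 2xSCS70. The row of Cdkn2a made up 50.9%, 53.3%, 69.0% and 67.5% of the INK4 sum. That row also counts p19Arf, which is not an INK4 inhibitor, and the part of p19Arf in the sum cannot be told. The kinase sum was 196, 151, 199 and 177 RPKM, and its ratio to the D cyclin sum was 0.821, 1.09, 7.89 and 9.32. The ratio of Cdkn1b to the D cyclin sum was 0.179, 0.232, 1.09 and 1.44. Each of these ratios had the smallest exact two-sided permutation p of this design, 0.333. A ratio of transcripts is not a ratio of proteins, and no protein was measured.

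Mtap, the gene next to Cdkn2a on its other side, which encodes an enzyme of methionine salvage, was 1.32-fold lower in 2xSCS70 (84.4 ± 0.472 against 112 ± 2.43 CPM, log2 change -0.41, SE 0.11, adjusted p = 0.0373). That call ended in 8 of 15 alternatives, among them upper quartile scaling (adjusted p = 0.0696), the replicate block (0.0806), log2(RPKM + 1) values (0.491) and either 2xSCS70 library left out (0.27 and 0.281). Dmrta1, on the far side of Cdkn2b, was at 0.130 ± 0.0347 (2xSCS2F10) and 0.186 ± 0.147 CPM and was not tested. Within 500 kb of Cdkn2a 5 of 21 rows were tested, of which 0 were higher and 1 was lower. The median log2 change of these tested rows was 0.58. Oraov1, beside Ccnd1, was 1.54-fold lower (12.1 ± 0.327 against 18.6 ± 1.57 CPM, log2 change -0.62, SE 0.15, adjusted p = 0.0296). Within 500 kb of Ccnd1 4 of 7 tested rows were lower, where 21.8% of all tested genes were. Around the other genes the lower rows were 14 of 36 for Cdkn2d, 8 of 16 for Ccnd3 and 5 of 16 for Cdkn1b. They were 3 of 6 for Ccnd2, 3 of 31 for Cdk4 and 2 of 7 for Cdk6. For Cdkn2c and Cdkn2b they were 1 of 6 and 1 of 4. Among the tested rows 5 were higher around Cdk4 and 0 around Ccnd1, Ccnd3 and Cdk6. Around Cdkn2b, Cdkn2c, Cdkn2d, Cdkn1b and Ccnd2 1 row each was higher, where 18.8% of all tested genes were. The call of Oraov1 ended with the replicate block (adjusted p = 0.0571) and on log2(RPKM + 1) (0.221) and log2(RPKM + 0.1) values (0.212). It also ended against a 1.5-fold change (0.447) and without 2xSCS70 replicate 1 or 2 (log2 change -0.65 and -0.59). Mir3962 lies inside Ccnd1 and had 0 counts.

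The library kit did not mark strand, so overlapping rows may share reads. By outer bounds the row 9330179D12Rik overlapped that of Ccnd2 by 1660 bases, more than its own deposited length of 1494 bases. Overlap of exons was not measured. The row 9330179D12Rik had 0.346 ± 0.0241 CPM in 2xSCS70 against 2.67 ± 0.290 in the other line. It was 7.66-fold lower (adjusted p = 0.00367), in the same direction as Ccnd2, a call that ended without 2xSCS70 replicate 1 (0.0675) or replicate 2 (0.0701). Bysl overlapped Ccnd3 by 358 bases, also by outer bounds, and was at 68.8 ± 4.87 and 55.8 ± 1.63 CPM (adjusted p = 0.106). Both were named after their values were seen. The tested genes nearest to Cdkn2a in log2 CPM over the 4 libraries were 4632411B12Rik (Euclidean distance 0.102), 4921513D23Rik (0.201) and Ino80d (0.297). Their mean levels were 99.6, 98.1 and 102 CPM in 2xSCS2F10, beside 240, 237 and 209.9 CPM in the other line.

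In the main test, the counts of called genes in the lists below are to be read against all tested genes. Of these 18.8% were higher, 21.8% lower and 40.6% called. With 1 library left out, the number called over the whole table rose without a 2xSCS2F10 library and fell without a 2xSCS70 library. List counts from those tests are therefore not to be read against these shares, nor as results about a list. Of 20 tested E2F targets and partners around the retinoblastoma step 8 rose and 1 fell, with a median log2 change of 0.72 beside 0.02 for all tested genes. Rb1, the retinoblastoma gene, was 1.65-fold higher (25.2 ± 1.07 against 15.3 ± 0.122 CPM, adjusted p = 0.0137), the repressor E2f6 2.01-fold (adjusted p = 0.00585) and Cdc25a, a phosphatase that activates cyclin-dependent kinases, 2.69-fold (adjusted p = 0.0104). Tfdp2, a dimerisation partner of E2F factors, was 2.09-fold lower (adjusted p = 0.0194). Replicate 2 minus replicate 1 of 2xSCS2F10 gave a median log2 difference of -0.62 for these genes. The list counted 16 higher when 2xSCS2F10 replicate 1 was dropped, 14 when its replicate 2 was, and 0 without either 2xSCS70 library. The call of Rb1 ended against a 1.5-fold change, and that of Tfdp2 there and on RPKM values.

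On the p19Arf side of Cdkn2a, Trp53, the gene of p53, rose most. It was measured at 25.6, 23.2, 195 and 173 CPM and was 7.55-fold higher in 2xSCS70 (log2 2.92, SE 0.14, adjusted p = 0.000515), with no overlap. Huwe1, a ubiquitin ligase that p19Arf inhibits, was 1.85-fold higher (865 ± 14.6 against 467 ± 20.6 CPM, adjusted p = 0.00697). Ccng1, a target of p53, was 1.80-fold higher (adjusted p = 0.00777), whereas Cdkn1a, another target, was 3.39-fold lower. Of 10 tested genes of the p19Arf and p53 axis 5 rose and 2 fell, against 18.8% and 21.8% of all tested genes, with a median of 0.27. The calls of Trp53 and Cdkn1a remained without either 2xSCS70 library and the other 5 ended. Ccng1 also missed the threshold against a 1.5-fold change.

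Of 23 genes whose proteins are known to act on the Ink4a/Arf locus itself 22 were tested. Of these 10 rose and 1 fell, against 18.8% and 21.8% of all tested genes, with a median of 0.59. Cbx7, a Polycomb protein known to repress the locus, had 0 counts in 2xSCS2F10 and was at 5.32 ± 0.431 CPM in 2xSCS70, at least 33.8-fold higher against a floor of 3 fragments per library. Eed, a core subunit of the other Polycomb complex, was 1.91-fold higher (74.3 ± 0.682 against 38.8 ± 2.20 CPM, adjusted p = 0.0052). The factors Ets1 and Ets2, known as activators of p16Ink4a, were 2.21-fold (adjusted p = 0.00598) and 3.67-fold higher (337 ± 0.653 against 91.7 ± 5.62 CPM, adjusted p = 0.000928). The list thus held both repressors and activators of Cdkn2a among the genes that rose. The calls of Cbx7 and Ets2 remained without either 2xSCS70 library, and the count of higher genes was then 2.

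Of 17 tested genes that control the turnover of p27 and D cyclins 1 rose and 1 fell, where 40.6% of all tested genes were called, with a median of 0.13. Cul1, the scaffold of the SCF ubiquitin ligases, was 1.51-fold lower (124 ± 0.895 against 187 ± 15.9 CPM, adjusted p = 0.0171), and Rnf123, a ubiquitin ligase subunit for p27, 1.91-fold higher (26.4 ± 2.77 against 13.8 ± 0.267 CPM, adjusted p = 0.0092). Without 2xSCS2F10 replicate 1 the list counted 6 higher and 5 lower, and without its replicate 2 it counted 7 and 2. Without either 2xSCS70 library it counted 0. Both calls ended against a 1.5-fold change, and that of Cul1 ended on RPKM values too.

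Of 9 tested genes listed under assembly and activation of cyclin D kinases 2 rose and 3 fell, with a median of 0.05. Of all tested genes 18.8% rose and 21.8% fell. The 2 that rose include Wee1, an inhibitor and not an activator. Cdk7, the catalytic subunit of the kinase that activates CDK4 and CDK6, was 1.85-fold lower (65.9 ± 2.70 against 122 ± 6.99 CPM, adjusted p = 0.00571). Cdc37, the chaperone partner that loads CDK4 onto Hsp90, was 1.499-fold lower (176 ± 10.9 against 264 ± 1.67 CPM, adjusted p = 0.0163). Wee1, which inhibits mitotic cyclin-dependent kinase, was 3.34-fold higher (56.0 ± 0.187 against 16.8 ± 8.56 CPM, adjusted p = 0.0197), and 5.18-fold without 2xSCS2F10 replicate 1. All of these calls ended without either 2xSCS70 library. That of Cdc37 also ended on RPKM values and against a 1.5-fold change.

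Factors and signals that induce D cyclins moved both ways: of 20 genes 19 were tested, 4 rose and 4 fell, against 18.8% and 21.8% of all tested genes, with a median of -0.01. Mycn, a Myc family factor that induces Ccnd2 in several tissues, was measured at 19.2, 24.4, 1.34 and 0.616 CPM. It was 22.0-fold lower in 2xSCS70 (SE 0.42, adjusted p = 0.00233), with no overlap, and its call remained without either 2xSCS70 library (35.2-fold without replicate 1). Fosl1, an AP-1 subunit, was 8.70-fold higher (4.08 ± 0.595 against 0.466 ± 0.213 CPM, adjusted p = 0.00563). Tcf7l1, a Wnt pathway factor, was 2.91-fold higher (48.7 ± 5.25 against 16.8 ± 1.17 CPM, adjusted p = 0.00255) and Gli1, the target and effector of hedgehog signalling, 3.92-fold higher (3.97 ± 0.0226 against 1.01 ± 0.168 CPM, adjusted p = 0.00685). On log2(RPKM + 1) values, which understate changes of low genes, the folds were 2.50 for Fosl1, 1.59 for Gli1 and 5.24 lower for Mycn. Without 2xSCS2F10 replicate 1 the list counted 6 each way and without its replicate 2 it counted 7 each way. Of the higher calls 0 remained without 2xSCS70 replicate 1, and that of Tcf7l1 remained without its replicate 2.

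Of 20 tested genes of cell proliferation 5 rose and 0 fell, against 18.8% and 21.8% of all tested genes. All 20 had a positive log2 change, with a median of 0.98. The 4 called genes with the lowest adjusted p were subunits of the replication helicase. Mcm3 was 3.32-fold (405 ± 12.9 against 122 ± 44.5 CPM, adjusted p = 0.00884), Mcm6 2.30-fold (0.0043), Mcm7 2.33-fold (0.0359) and Mcm4 1.74-fold higher (0.0255). The subunit genes Mcm2 and Mcm5, also in the list, were not among these 4. Mki67, the proliferation antigen Ki-67, was measured at 329, 90.7, 431 and 441 CPM and did not pass (log2 1.05, SE 0.59, adjusted p = 0.204). The low library was replicate 2 of 2xSCS2F10. The list counted 20 higher when 2xSCS2F10 replicate 1 was dropped, 13 when its replicate 2 was, and 0 without either 2xSCS70 library. Mki67 passed as higher in both former tests, at a log2 change of 2.25 and 0.40. The calls of Mcm4 and Mcm7 ended against a 1.5-fold change.

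Genes linked to senescence, the lasting arrest that p16Ink4a can impose, were called in numbers near the background: of 13 tested 2 rose and 4 fell, against 18.8% and 21.8% of all tested genes, with a median of -0.38. Glb1, the lysosomal galactosidase used as a senescence stain, was 4.44-fold lower in 2xSCS70 (15.5 ± 0.867 against 69.0 ± 21.2 CPM, adjusted p = 0.0039). Igfbp7, a secreted protein of the family that binds IGFs, was 10.4-fold lower (20.6 ± 4.97 against 214 ± 25.9 CPM, adjusted p = 0.00103). The related Igfbp3 was measured at 42.7, 268, 1.09 and 1.36 CPM. It was 127-fold lower (SE 1.07, adjusted p = 0.00836), but 222-fold without 2xSCS2F10 replicate 1 and 35.1-fold without its replicate 2. Igfbp5 was 5.93-fold higher (4.62 ± 0.435 against 0.776 ± 0.355 CPM, adjusted p = 0.00841). On log2(RPKM + 1) values the folds were 22.8 for Igfbp3 and 1.51 for Igfbp5. Between the 2xSCS2F10 libraries, replicate 2 minus replicate 1, these genes had a median log2 difference of 0.64, opposite in sign to the proliferation genes. The list counted 4 higher and 9 lower without 2xSCS2F10 replicate 1, 6 and 6 without its replicate 2, and only Igfbp7 remained called without either 2xSCS70 library.

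**Figure D5:**
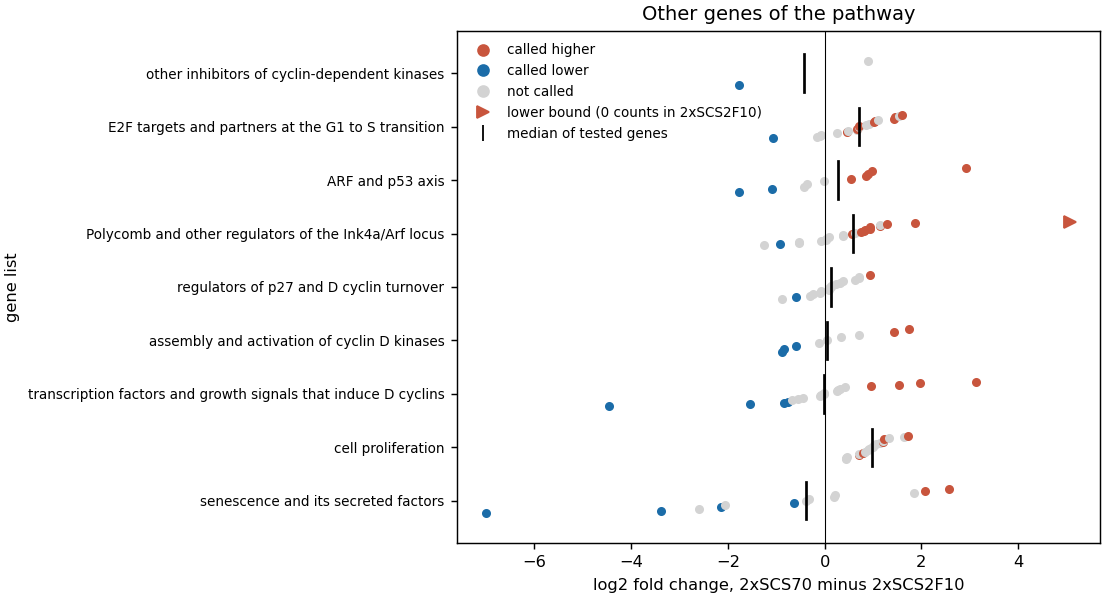
Log2 fold change, 2xSCS70 minus 2xSCS2F10 (horizontal axis), of every tested gene of 9 lists, with the call by colour and the median of each list as a black line; a triangle marks Cbx7 at its lower bound. The medians run from -0.43 for the other inhibitors, of which 2 were tested, to 0.98 for cell proliferation, beside 0.02 for all tested genes.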

How the data were processed

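Polyadenylated RNA of 2 mouse cell lines, 2 libraries each, was sequenced on an Illumina HiSeq 2000 from TruSeq mRNA libraries, per the labels' protocols. The kit does not mark strand. TopHat2 2.0.6, Bowtie, HTSeq and the build mm10 are named, per the submitters' processing notes, with the gene annotation not given in the sources used here. Raw counts of each gene row were deposited by the authors, per the file headers, and every count was even. They also deposited RPKM values, which equalled counts per length per 50468212, 59036269, 62928743 and 61554553 reads. Of 23358 rows, 25 names that had become dates were restored and 69 shared a name and were kept apart by position.

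Lines were compared with edgeR 4.0.16 (R 4.3.3, quasi-likelihood test, TMM scaling, filterByExpr, Benjamini-Hochberg adjustment, threshold 0.05). The SE is the absolute log2 change divided by the square root of F. The common biological coefficient of variation was 20.4%. The depth of 20159986 to 24485632 fragments puts 3 fragments at 0.109 to 0.157 CPM, and this floor covers counting error only. Alternatives were upper quartile and RLE scaling, testing without a filter or above a mean of 5 CPM, leaving out each library in turn, the replicate number as a block, DESeq2 1.42.0, limma-voom (limma 3.58.1), log2(RPKM + 1), log2(RPKM + 0.1), a test against 1.5-fold and counts divided by 2. Where a line had 1 library left, it was assumed to vary as the other line does. The fit was checked on simulated counts. Sequences, tables and figures used Python 3.11.15, pandas 2.3.3, scipy 1.17.1 and matplotlib 3.10.9. Exons came from GENCODE on GRCm38 and promoter windows from RefSeq on GRCm38.p6.

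The 10 genes, 9 lists of 133 genes and 8 marker lists of 47 genes were chosen with earlier results of these data known, and 1 further marker is not reported here. Named were the 10 genes, Mki67, Cdkn1a and Cdkn1c, up to 4 called genes of each list by adjusted p, the rows beside Cdkn2a, Cdkn2b and Ccnd1, and the 3 genes nearest to Cdkn2a.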

Additional observations from a re-analysis of the deposited data

How the results depend on the processing

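The calls of Ccnd2 and Ccnd3 held in all alternatives, and those of Cdkn2a, Ccnd1 and Cdk6 in all but the tests without 1 of the 2xSCS70 libraries. Leaving out 1 library gave 850 to 9567 called genes and 2 to 9 of the 10 genes. The log2 change then ranged from 1.12 to 1.28 for Cdkn2a, -0.10 to 0.28 for Cdkn2b, 0.38 to 0.61 for Cdkn2c, -0.38 to 0.77 for Cdkn2d and -0.75 to -0.60 for Cdkn1b. It ranged from -4.59 to -2.22 for Ccnd1, -4.64 to -4.39 for Ccnd2, -1.96 to -1.77 for Ccnd3, -0.12 to 0.018 for Cdk4 and -1.12 to -0.87 for Cdk6. Reversed signs were -0.10 for Cdkn2b and 0.018 for Cdk4 without 2xSCS2F10 replicate 1, and -0.38 and -0.034 for Cdkn2d without 2xSCS2F10 replicate 2 and 2xSCS70 replicate 1. The share of Ccnd1 among D cyclins differed between the lines by -3.98 percentage points, and by -13.2 to 5.24 with 1 library left out. The same ranges were -40.3 to -28.9 for Ccnd2, 35.1 to 42.1 for Ccnd3, 14.9 to 17.3 for Cdkn2a among INK4 genes and -5.53 to -3.22 for Cdk6 among kinases. From counts not divided by length the differences were 0.45 points for Ccnd1, 30.3 for Ccnd3 and -7.11 for Cdk6.

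Cdkn2c passed under upper quartile scaling (0.58), with a filter at a mean of 5 CPM (0.53), with DESeq2 (0.48), limma-voom (0.50), log2(RPKM + 1) (0.70), log2(RPKM + 0.1) (0.73) and counts divided by 2 (0.50). Cdkn1b missed the threshold on log2(RPKM + 1) (-0.42), on log2(RPKM + 0.1) (-0.44) and against a 1.5-fold change (-0.67). Cdk4 turned to 0.043 under upper quartile scaling and to 0.19 and 0.19 on the RPKM scales. Against a 1.5-fold change 3094 genes were called. The cause of these shifts was not tested. Calls on log2(RPKM + 1) values were 63.8% higher, against 46.3%, and the median change of all tested genes was 0.15, 0.25 on log2(RPKM + 0.1) values and 0.11 under upper quartile scaling.

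The libraries numbered 2 were deposited apart from those numbered 1 in both lines, but the labels name no shared batch for a number. The difference between replicates correlated by 0.0539 between the lines over tested genes, which are not independent. With the replicate number as a block 5222 genes and 6 of the 10 genes were called, and Ccnd1 had a log2 change of -3.43 (adjusted p = 0.00639). Of 52 called list genes 50 remained called with the block, 42 on log2(RPKM + 1) values, 25 against a 1.5-fold change, 6 without 2xSCS70 replicate 1 and 7 without its replicate 2. Each of the 10 genes had 652 fragments or more per line, and the part of depth in their calls was not tested.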
